A study of Mus musculus with 6 samples.

Results

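Monocyte cluster 13 was the group of cells that the study's deposited annotation calls Monocytes and places in Seurat cluster 13. Members were taken from that annotation alone, without any measured level. It held 1797 of the 6260 annotated monocytes (28.7%) and of the 58794 annotated cells (3.06%), with 242, 320 and 315 cells in control mice 1 to 3 and 182, 195 and 543 cells in stress mice 1 to 3. The other monocyte clusters, 11 and 12, held 2481 and 1982 cells.

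Liver tumors of 6 wild-type mice were dissociated fresh and profiled by droplet single-cell RNA sequencing on the 10x Genomics Chromium platform, 1 library a mouse. Per the study's methods, the mice were young adult male C57BL/6J animals that carried orthotopic tumors of H22, a murine hepatocellular carcinoma line, injected into the left lateral lobe of the liver. The 3 stress mice were exposed to chronic unpredictable mild stress, a changing daily schedule of mild stressors, and the 3 control mice received the same tumor cells without stressors. Per the study, the tumor cells were implanted after the stress model had been evaluated, so the stress came before the tumor. All groups therefore carried a tumor, and the tumor was a transplanted line and not one that arose in the liver.

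Arg1 encodes arginase, which hydrolyses arginine to ornithine and urea. Monocytes that enter a tumor can mature into macrophages, and Arg1 together with Spp1 (osteopontin, a secreted matrix and adhesion protein) is often found in tumor macrophages of poorly oxygenated regions. Low oxygen stabilises the factor HIF-1, which switches on glycolysis enzymes and a set of adaptation genes, while interferon and antigen presentation genes mark a different, T-cell-facing state of the same lineage.

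In cluster 13 the median cell held 4846 UMIs (unique molecular identifiers, counted transcripts), and the medians of the 6 mice ran from 3371.5 to 6335. The summed counts behind each mouse's values ran from 1252598 to 3940014 UMIs. Of its cells, 34 held under 1000 UMIs and 124 (6.90%) were called doublets, against 4.61% of all cells. A UMI of the tumor markers Krt8, Krt18 or Cldn6 was held by 242 cells, 13.2% ± 2.5 in control and 14.8% ± 2.56 in stress mice (mean ± SD, n = 3 each). Libraries shared 386 cell barcodes, 21 of them in cluster 13 cells. Matrices of the control mice were written by Cell Ranger 9.0.0 and those of the stress mice by 7.1.0, so that between the groups an effect of the software version and one of stress cannot be told apart.

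Arg1 (ENSMUSG00000019987, GRCm38 chr10:24915221-24927484, minus strand) was high in cluster 13 of every mouse. Its level was 2692, 2754 and 3130 CPM (UMIs of the gene, scaled so that all genes of the cluster sum to 1000000 in each mouse) in control mice 1 to 3 and 3406, 1931 and 3214 CPM in stress mice 1 to 3, a mean of 2855 ± 529 (SD, n = 6). Stress mouse 2 lay lowest, and the groups overlapped. In cluster 11 the gene averaged 881 ± 263 CPM and in cluster 12 130 ± 127 CPM, with no overlap between cluster 13 and either. The log2 ratio of cluster 13 over cluster 11 in the same mouse was 1.78 at the median (1.28 to 2.18), and over cluster 12 it was 4.87 (3.22 to 7.5). Since the cells were clustered on their expression, these ratios describe the cluster and carry no test.

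Over all 28 clusters of the study, cluster 13 had the highest Arg1 level. Cluster 11 came next, followed by endothelial cluster 24 at 287 ± 178 CPM, dendritic cell cluster 19 at 154 ± 90.8 CPM and monocyte cluster 12. The last 3 overlapped over the mice and their order is not separated by the spread. Cluster 11, with a lowest mouse at 426 CPM, also overlapped cluster 24, with a highest mouse at 566 CPM. Spp1 (GRCm38 chr5:104435118-104441050, plus strand) also had its highest mean in cluster 13, at 12385, 6388 and 9082 CPM in control and 10026, 3088 and 7075 CPM in stress mice. Again stress mouse 2 was lowest, and the groups overlapped. Cluster 26, annotated as HSCs, came next at 4641 ± 5082 CPM, and its highest mouse, at 13834 CPM, lay above every cluster 13 value. Spp1 averaged 1104 ± 270 CPM in cluster 11 and 325 ± 122 CPM in cluster 12. NK/T cells of cluster 10 averaged 384 ± 109 CPM, near the level of cluster 12, and tumor cluster 5 averaged 1738 ± 409 CPM.

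Most single cells of the cluster carried Arg1. After each cell was thinned to 1000 UMIs, 76.6% of 1763 cells held an Arg1 UMI (exact binomial 95% interval 74.6 to 78.6, counting error only), against 28.7% in cluster 11, 4.41% in cluster 12 and 0.486% in NK/T cells, which lack the gene and give the level of free RNA. Unthinned, the share was 88.4%, with 43.9% and 9.23% in clusters 11 and 12 and 1.85% in NK/T cells. The thinned share was 82.2%, 79.5% and 79.5% in control and 86.3%, 51.1% and 76.7% in stress mice, so that stress mouse 2 stood below the other mice.

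Without thinning, 208 cells (11.6%) held no Arg1 UMI, and in stress mouse 2 that share was 34.4%. Over all its cells the median was 13 Arg1 UMIs and the highest cell had 219. The tenth of cells with the most Arg1 held 35.0% of its UMIs, and 48.4% in stress mouse 2. Arg1 was therefore widespread and uneven, most of all in stress mouse 2.

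Cells with and without a thinned Arg1 UMI were set side by side within each mouse. Spp1 was detected more often in the Arg1 cells in 6 of 6 mice, by a median of 21.3 percentage points (7.49 to 29.8). Cxcl3, a neutrophil-attracting chemokine, was higher by 16.6 points (12.7 to 25.3), Itgam (CD11b, a myeloid integrin) by 13.4 points and Ptgs2 (cyclooxygenase-2, which makes prostaglandins) by 12.8 points, each in 6 of 6 mice. Egln3, a prolyl hydroxylase induced by low oxygen, was higher by 15 points in 5 of 6 mice. The monocyte gene Ly6c2, the epithelial keratin Krt18 and the proliferation gene Top2a were higher in the Arg1 cells of only 1 of 6 mice. Mki67, another proliferation gene, was higher in 3 of 6 mice, with a median difference of 0.108 points. These shares describe cells that share a library and carry no test.

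The label of these cells as macrophages was checked against their markers. Adgre1 (F4/80, the defining surface marker of mouse macrophages) stood at 36.9, 22.7 and 24.7 CPM in control and 33.2, 22.4 and 35.8 CPM in stress mice, below clusters 11 and 12 of the same mouse in 6 of 6 mice, where it averaged 102 ± 37.9 and 80.5 ± 14.9 CPM. Of 14 macrophage identity genes, 0 were higher in cluster 13 than in both other clusters in all 6 mice and 7 were lower, beside 429 (5.41%) higher and 806 (10.2%) lower of all 7923 genes compared. Csf1r, the receptor for the macrophage growth factor, averaged 98.1 CPM against 218 and 202 CPM, and Lyz2, the myeloid lysozyme, 1523 against 3922 and 6874 CPM. Cd14, a co-receptor for bacterial lipopolysaccharide, lay at 1566 CPM between the 2 clusters.

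Itgam was the other way, at 373 CPM against 181 ± 58.3 in cluster 11 and 285 ± 113 in cluster 12, higher in 6 of 6 and 5 of 6 mice. Of 9 classical monocyte genes compared, 0 were higher than in both other clusters and 3 were lower, beside 5.41% and 10.2% of all genes. Ly6c2, the marker of inflammatory monocytes, averaged 51.5 CPM against 120 and 569 CPM. Chil3, which encodes a chitinase-like protein, averaged 1026 CPM, above cluster 11 (380) and below cluster 12 (3356). Since Adgre1 and Ly6c2 were both below the other clusters, the cells are called here by their annotation and their leading genes, as Arg1- and Spp1-high monocytes.

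Markers of other cell types were summed in each mouse. The 5 Kupffer cell markers came to 2.79, 3.07 and 1.94 CPM in control and 16.6, 4.79 and 5.33 CPM in stress mice, and the 7 T and NK markers to 0.696, 6.15 and 1.94 CPM in control and 7.54, 51.9 and 19.3 CPM in stress mice. Both sums were higher in every stress than in every control mouse, as were 493 (5.39%) of the 9147 genes tested for stress. The lowest of these sums rest on few UMIs. The 4 B cell markers ran from 0 to 6.39 CPM, 7 dendritic cell markers from 6.27 to 47.1, 6 stellate cell markers from 2.4 to 9.64 and 5 red cell markers from 0 to 3.48 CPM. The 7 endothelial markers summed to 56.4 to 164 CPM in control and 140 to 212 CPM in stress mice, and the 10 hepatocyte markers to 54.3 to 125 and 83.7 to 245 CPM. The 7 neutrophil markers summed to 52.7 to 351 CPM, with Ly6g at 0 in all 6 mice, against up to 3699 CPM in cluster 12. The 9 tumor markers summed to 177 to 299 CPM in control and 151 to 374 CPM in stress mice. H19, Dlk1 and Igf2 of that list were at 0, while Krt18 reached 171 CPM. Of the 5 tumor markers compared between clusters, Cdh1 (E-cadherin) was higher than in both in all 6 mice, beside 5.41% of all genes, and the median ratios of the list were 0.83 and 0.55.

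**Figure D1:**
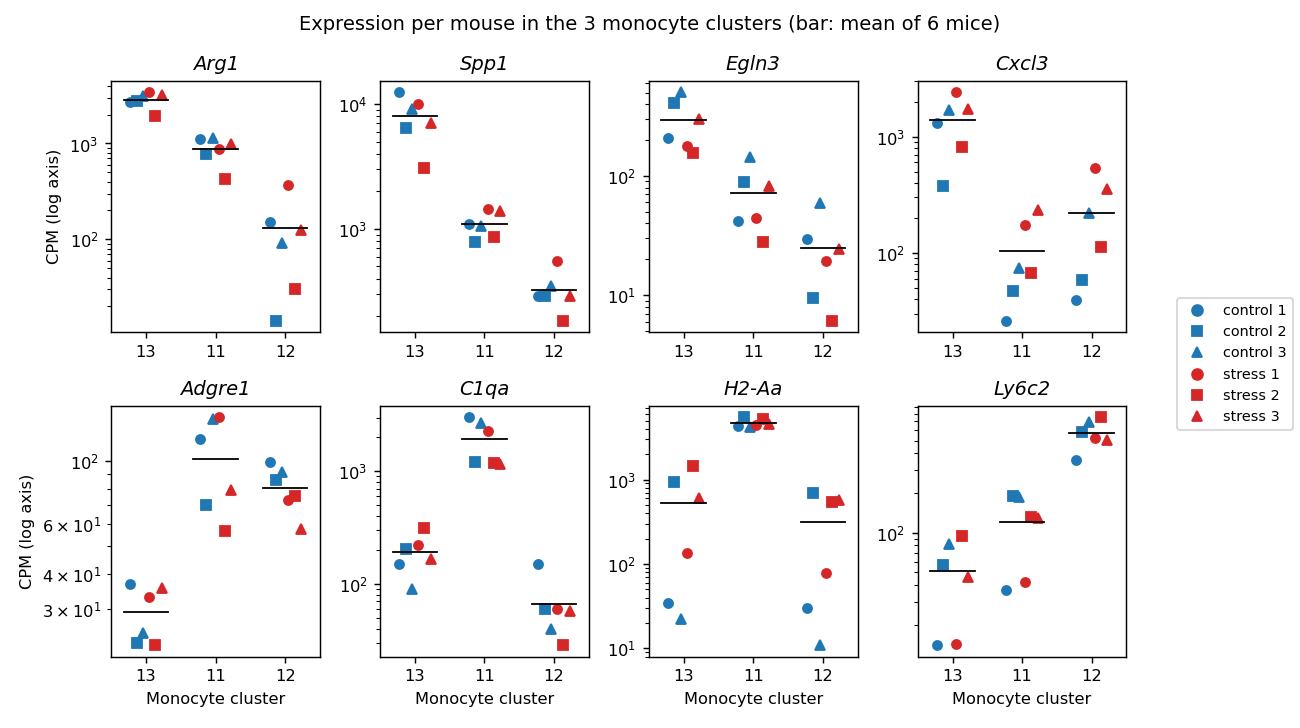
Levels of 8 genes in CPM (log axis) in monocyte clusters 13, 11 and 12, with 1 point a mouse (blue control, red stress, the shape giving the replicate number) and a bar at the mean of the 6 mice. Arg1, Spp1, Egln3 and Cxcl3 averaged highest in cluster 13, Adgre1, C1qa and H2-Aa averaged highest in cluster 11, and Ly6c2 averaged 51.5 CPM in cluster 13 against 569 CPM in cluster 12.

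The 20 genes that led cluster 13 over both other clusters were those with at least 100 CPM in the cluster, a higher level in all 6 mice against both clusters and the largest smaller one of the 2 median log2 ratios. Serpinb2, an inhibitor of plasminogen activators, had a median ratio of 3.86 over cluster 11 and of 3.41 over cluster 12. Spp1 had 2.91 and 4.53, the latter against a level near that of NK/T cells. Among secreted signals were Cxcl3 with 3.69 and 2.76, Cxcl1 with 1.92 and 3.52, Ccl2, which recruits monocytes, with 2.46 and 1.46, Ccl7 with 1.45 and 2.91 and Ccl3 with 1.51 and 1.47.

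Of the cytokines, Lif (leukemia inhibitory factor) had 2.39 and 1.99 and Inhba, a subunit of activin A, 1.79 and 3.09. Low-oxygen genes were Egln3 with 2.07 and 3.35, Ankrd37, an ankyrin repeat gene, with 1.74 and 2.44 and Ero1a, an oxidase that forms disulfide bonds in the endoplasmic reticulum, with 1.60 and 2.58. Over all 28 clusters Egln3 was not highest here, at 292 ± 138 CPM against 397 ± 158 CPM in inflammatory myeloid cluster 0. Pdpn (podoplanin, a membrane glycoprotein) had 2.11 and 4.08, and Gadd45a, a growth arrest and DNA damage gene, 2.06 and 1.56. Arg1 itself was the twelfth in this order. Also on the list were B230303A05Rik, Ckap2l, Agbl3 and Rsbn1.

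Serpinb2 was uneven over mice, at 62.0, 57.8 and 89.7 CPM in control and 164, 46.3 and 189 CPM in stress mice, and 5.90% of thinned cells held a UMI of it. Stress mice 1 and 3 were high and stress mouse 2 was lowest. Cxcl3 stood at 1300, 379 and 1689 CPM in control and 2398, 819 and 1719 CPM in stress mice, where both second replicates were lowest.

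By the mirrored rule the 10 genes that were lowest were led by Arhgap15, a GTPase-activating protein, at -2.38 over cluster 11 and -2.77 over cluster 12. Ms4a6b had -2.37 and -3.15, and the integrins Itgal and Itga4, which attach leukocytes to vessel walls, had -2.28 and -3.14, and -1.95 and -2.24. Gbp2, a gene of the interferon response, had -1.98 and -2.01. AW112010 had -3.92 and -1.99, Ly86, partner of a Toll-like receptor relative, -2.66 and -1.91, and Jaml and Slc8a1 were also on the list.

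**Figure D2:**
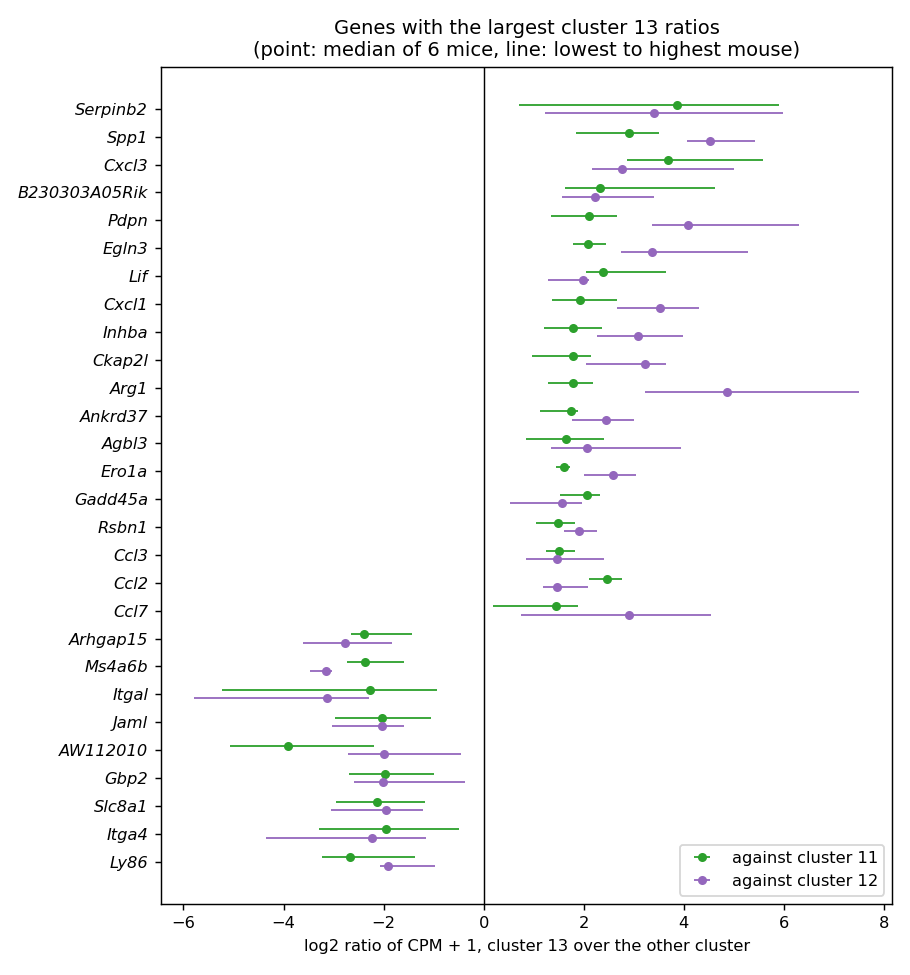
Log2 ratio of CPM + 1 of cluster 13 over cluster 11 (green) and over cluster 12 (purple) for genes that led the cluster and genes that were lowest, with the median of the 6 mice as a point and the lowest to the highest mouse as a line. The ratio of Arg1 had a median of 1.78 over cluster 11 and 4.87 over cluster 12, and the lines of all genes shown stayed on 1 side of 0 by the rule that chose them.

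The 250 bases before the start of 3 leading genes of the hypoxia response list are shown because a short motif bound by HIF-1 was counted in all promoters of that length. The windows end at the RefSeq start of each gene (GRCm38.p6), and for Ankrd37 and Ero1a GENCODE places the outermost start farther upstream, at 46005707 on chromosome 8 and within the window at 45318771 on chromosome 14. The sequences, from RefSeq, are written 5′ to 3′ on the gene's strand, and capitals mark each match to ACGTG or GCGTG on either strand, where overlapping matches run together. Egln3 (chr12:54203875-54204124, minus strand) held 1 match, Ankrd37 (chr8:45999851-46000100, minus strand) 4 and Ero1a (chr14:45318573-45318822, minus strand) 3.
Egln3: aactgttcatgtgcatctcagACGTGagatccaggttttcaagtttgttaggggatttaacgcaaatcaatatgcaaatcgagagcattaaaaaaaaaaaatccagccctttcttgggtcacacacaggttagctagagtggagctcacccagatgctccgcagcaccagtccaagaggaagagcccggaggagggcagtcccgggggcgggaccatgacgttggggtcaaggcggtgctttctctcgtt
Ankrd37: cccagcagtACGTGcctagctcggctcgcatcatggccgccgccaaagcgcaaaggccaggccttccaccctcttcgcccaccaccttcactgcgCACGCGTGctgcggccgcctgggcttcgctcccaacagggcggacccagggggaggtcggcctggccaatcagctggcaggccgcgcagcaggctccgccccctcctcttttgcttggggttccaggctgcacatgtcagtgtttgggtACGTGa
Ero1a: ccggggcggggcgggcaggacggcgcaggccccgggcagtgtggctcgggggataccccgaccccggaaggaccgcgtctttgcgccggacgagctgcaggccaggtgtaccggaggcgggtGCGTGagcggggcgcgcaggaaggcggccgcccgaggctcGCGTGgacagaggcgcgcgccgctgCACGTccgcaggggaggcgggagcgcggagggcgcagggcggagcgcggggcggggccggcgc

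At least 1 match stood in 41.5% of the 27025 promoters of this length and in 64.3% of the 6300 that belonged to genes compared between the clusters. Of the hypoxia response list 16 of 18 promoters held one (88.9%), of the glycolysis list 15 of 17 (88.2%), and of the 20 leading genes 8 of 15 (53.3%). A match describes the letters in this window and is no evidence of binding. Arg1 had no entry among these promoters.

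Among the lists compared, those of glycolysis and the hypoxia response had the largest shares of members that were higher in cluster 13. Of 17 glycolysis genes, 12 were higher than in both other clusters in all 6 mice and 0 were lower, beside 5.41% and 10.2% of all genes, with a median log2 ratio of 0.58 over cluster 11 and 0.86 over cluster 12, against -0.01 and -0.02 over all genes. Gapdh averaged 3374 CPM against 2167 and 1466, Pgk1, which makes ATP in the pathway, 918 against 489 and 375, and Ldha, which makes lactate, 909 against 597 and 438. The glucose transporter Slc2a1 had ratios of 1.08 and 1.68.

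Of 19 hypoxia response genes, 14 were higher and 0 lower, beside the same 5.41% and 10.2% of all genes, with median ratios of 0.81 and 1.64. Hilpda, a lipid droplet protein, averaged 1506 CPM against 628 and 359, Mif, a cytokine, 1348 against 841 and 425, and Ndrg1 522 against 255 and 147. Bnip3, which marks mitochondria for removal, had ratios of 1.41 and 2.20. Hif1a itself, the oxygen-regulated subunit of the factor, was not among them, at 494 CPM against 582 ± 265 and 464 ± 182, and Vegfa, the vessel growth factor, was higher in 5 of 6 mice over cluster 11 and in 6 of 6 over cluster 12.

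Secreted signals came next. Of 18 chemokine ligands, 9 were higher and 1 was lower, beside 5.41% and 10.2% of all genes, with median ratios of 0.77 and 1.36. Cxcl2 stood at 8065, 6596 and 10345 CPM in control and 15300, 6898 and 12891 CPM in stress mice, against means of 4606 and 4713 CPM in clusters 11 and 12. Stress mouse 1 was highest, and control mouse 2 and stress mouse 2 were lowest. Cxcl10, which attracts T cells, was the 1 lower member, at 223 CPM against 534 and 489, and the related Cxcl9 averaged 39.7 against 455 and 107 CPM.

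Of 17 inflammatory cytokine genes, 5 were higher and 1 lower, beside 5.41% and 10.2% of all genes, with medians of 0.67 and 0.62. The 5 were Il1a, Il23a, Ptgs2, Ptges and Csf1, and the lower one was Il18. Il1a averaged 879 CPM against 360 and 256 CPM. Il1b, the list's most abundant member in the cluster, did not set it apart, at 4356 CPM against 3905 ± 2174 and 5077 ± 1954.

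Of 20 genes of lipid-associated macrophages, 7 were higher and 0 lower. They were Spp1, Gpnmb, Cd9, Lgals3, Plin2, Ctsl and Cstb, and Lgals3 (galectin-3) averaged 2573 CPM against 1388 and 1423. Apoe, the lipid carrier that usually accompanies this state, averaged 902 CPM against 5101 ± 4063 and 1215 ± 1021, and Trem2, its lipid receptor, 118 against 115 and 67.2 CPM. Of 16 matrix and proteolysis genes, 4 were higher (among them Serpinb2, Ecm1 and Adam8) and 1, Tgfbi, was lower. The shares over all genes were 5.41% higher and 10.2% lower. Mmp12, macrophage elastase, averaged 858 CPM against 631 ± 247 in cluster 11 and 8.50 ± 6.17 in cluster 12.

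Of 18 arginine and polyamine genes, 2 were higher, Arg1 and Nos2, the inducible nitric oxide synthase that competes with arginase for arginine, and the antizyme Oaz1 was lower. Over all genes 5.41% were higher and 10.2% lower, so that these counts lie near the background. Nos2 stood at 167, 321 and 345 CPM in control and 160, 108 and 203 CPM in stress mice, with ratios of 0.98 and 3.77. Stress mouse 2 was again lowest, and the groups overlapped. Arg2, the mitochondrial arginase, was higher than cluster 11 in 6 of 6 mice and than cluster 12 in 5 of 6, and Slc7a2, an arginine transporter, had ratios of 0.67 and 2.81. Means of the study's other M2 genes lay below those of cluster 11. Mrc1, the mannose receptor, averaged 34.4 CPM against 260 ± 145 in cluster 11 and 24.4 ± 26.7 in cluster 12, and the cytokine Il10 23.5 against 48.7 ± 32.7 and 18.5 ± 13.4. Tgfb1, a suppressive cytokine, averaged 178 ± 61.1 CPM against 210 ± 67.8 and 301 ± 84.9. Of 13 genes of alternative activation, Ccl24, an eosinophil chemokine, was the 1 higher member and Socs3 the 1 lower, again near the shares over all genes, with a median ratio of -0.31 over cluster 11 and 0.41 over cluster 12.

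Interferon-stimulated genes were low. Of 15 compared, 12 were lower than in both clusters in all 6 mice and 0 higher, beside 10.2% and 5.41% of all genes, with median ratios of -1.11 and -1.41. Irf1, an interferon-induced factor, averaged 100.3 CPM against 196 and 228, and Bst2 (tetherin) 157 against 268 and 213. Isg15 was lower than cluster 11 in 6 of 6 mice and than cluster 12 in 5 of 6.

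C1q and MHC-II genes lay far below cluster 11 at the median, and not below cluster 12. Over the 12 genes of the C1q and MHC-II list the median ratio was -3.00 over cluster 11 and 0.39 over cluster 12, and 3 genes (H2-DMa, Cd86 and Cd40) were lower than in both, beside 10.2% of all genes. C1qa, a complement subunit of mature macrophages, averaged 191 CPM against 1930 ± 843 in cluster 11 and 65.7 ± 42.8 in cluster 12. A C1qa UMI was found in 11.3% of thinned cluster 13 cells, less than the 21.5% of endothelial cells and above the 0.608% of NK/T cells.

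MHC-II levels differed widely between mice. H2-Aa, an MHC-II chain, stood at 34.1, 940 and 22.3 CPM in control and 134, 1467 and 597 CPM in stress mice. The order followed the number of cluster 11 cells in part, which were 107, 716 and 112 in control and 199, 671 and 676 in stress mice, and the part of those cells in these levels was not tested. H2-Eb1 and Cd74 had the same highest mouse, stress mouse 2.

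For the other lists the counts stand beside 5.41% higher and 10.2% lower over all genes, and several lie near these shares. Of 12 checkpoint and inhibitory genes, Nt5e (CD73, which makes adenosine) was higher, at 88.7 CPM against 15 and 9.78, while Cd274 (PD-L1), Havcr2 (TIM-3) and Entpd1 (CD39) were lower. Of 16 iron, heme and redox genes, Hmox1, which breaks down heme, Ftl1 and Tfrc were higher and Txnrd1 and Nfe2l2 were lower. Of 13 heat shock and immediate early genes, Egr1, Ier3 and Hsp90aa1 were higher, and of 11 glucocorticoid and adrenergic genes Nr3c1 (the glucocorticoid receptor) and Errfi1 were. The receptor averaged 101 CPM against 77.5 and 61.9. Of 13 cell cycle genes, 0 were higher or lower in all mice against both clusters. Of 4 junction genes, F11r (JAM-A, an adhesion molecule) and the integrin Itgal were lower, F11r at 51.0 CPM against 63.1 and 75.7.

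**Figure D3:**
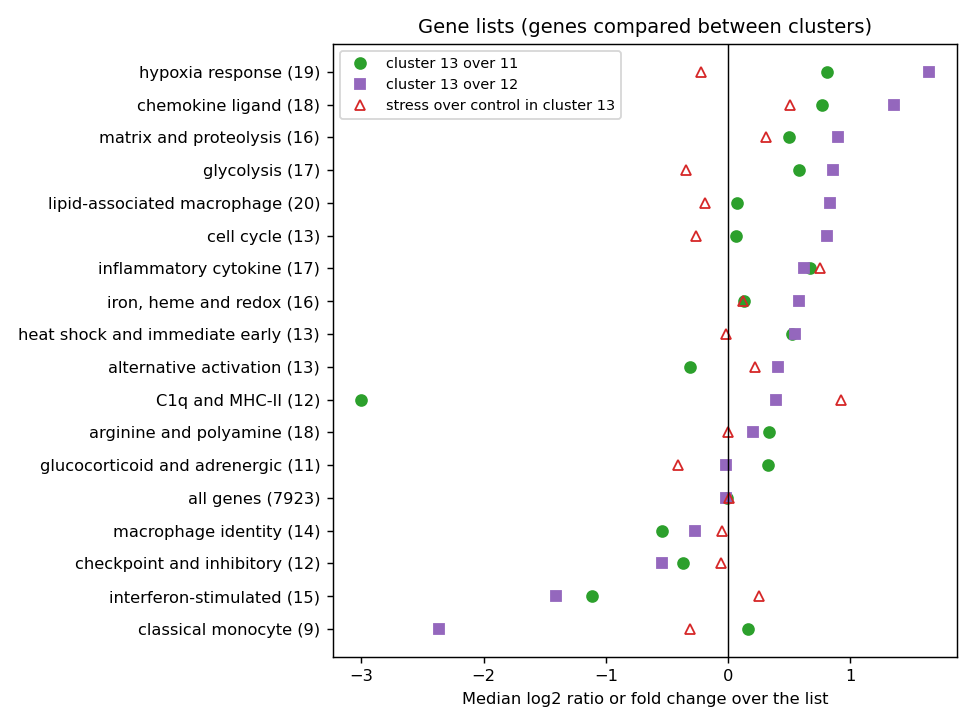
Median log2 ratio of cluster 13 over cluster 11 (green circles) and over cluster 12 (purple squares), and median log2 fold change of stress over control in cluster 13 (red open triangles), for each gene list, with the number of its genes compared between clusters in brackets. Hypoxia response stood at 0.81, 1.64 and -0.22 and the interferon-stimulated list at -1.11, -1.41 and 0.26.

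Whether stress changed the size of the cluster was asked from its share of the monocytes in each mouse. The share was 57.6%, 23.1% and 51.5% in control and 38.1%, 12.1% and 31.0% in stress mice, a mean of 44.1% ± 18.4 against 27.1% ± 13.5 (SD, n = 3 each). Both second replicates were lowest in their group, and the groups overlapped. The difference of -17.0 points gave p = 0.3 in a two-sided exact permutation test, whose smallest possible value with 3 against 3 mice is 0.1. Within each replicate number the stress mouse was lower, by -19.5, -11.0 and -20.4 points, where p could not go below 0.25. As a share of all annotated cells the difference was 0.429 points (2.81% ± 0.557 against 3.24% ± 1.66, exact permutation p = 0.9), the opposite direction. Among cells other than tumor cells the difference was -1.02 points (exact permutation p = 0.6).

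**Figure D4:**
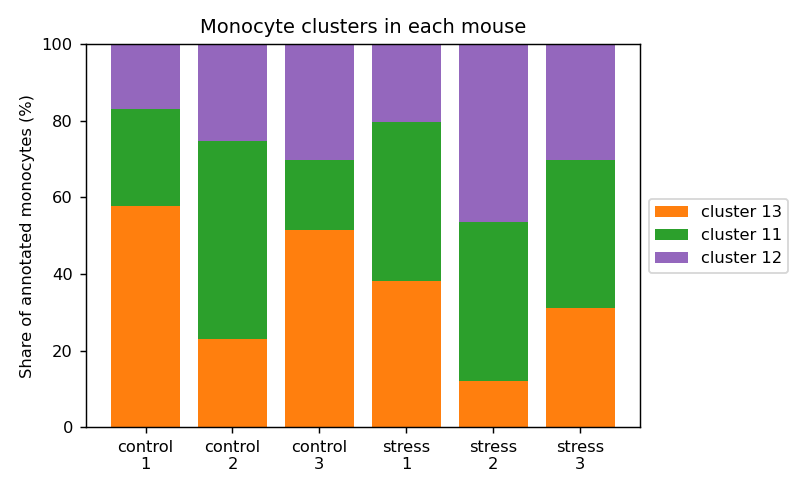
Share of each mouse's annotated monocytes in clusters 13 (orange), 11 (green) and 12 (purple), as stacked bars that sum to 100%. Cluster 13 took 57.6%, 23.1% and 51.5% in control and 38.1%, 12.1% and 31.0% in stress mice, and the groups overlap.

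Stress and control were then compared gene by gene within the cluster, over the summed counts of the 6 mice (edgeR quasi-likelihood test, Benjamini-Hochberg adjusted over the 9147 genes tested). At an adjusted p under 0.05, 8 genes (0.0875%) rose and 1 (0.0109%) fell, and 795 had an unadjusted p under 0.05. With DESeq2, 53 rose and 29 fell. With the replicate number as a block, since same-numbered mice deviated together, 86 (0.94%) rose and 58 (0.634%) fell, including the 9 called without it. That pairing was read from these same counts and is not stated in the labels. Of all genes tested, 493 (5.39%) lay higher in every stress than in every control mouse and 613 (6.7%) lower.

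Of the 8 rises, 5 belonged to 1 list. Cmss1, a ribosome biogenesis gene, stood at 111, 135 and 121 CPM in control and 1093, 1211 and 1470 CPM in stress mice. Its log2 fold change was 3.39 ± 0.25 (SE, edgeR adjusted p = 0.000707). Cdk8 (a Mediator kinase), Lars2 (a mitochondrial leucyl-tRNA synthetase), Gphn (gephyrin) and Camk1d (a calcium-dependent kinase) rose by 3.05, 3.0, 2.97 and 2.29. The sum of these 5 ran from 887 to 1046 CPM in control and from 6587 to 7524 CPM in stress mice. They were listed because earlier results of these libraries showed them to rise in other cells, and in clusters 11 and 12 Cmss1 differed by 3.01 and 3.52. Software version and stress cannot be told apart for them.

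The other calls were Gm15726 (3.64 ± 0.41), Gm19951 (2.13 ± 0.26) and mt-Atp8 (1.75 ± 0.23), a mitochondrial ATP synthase subunit, which rose, and Tecpr2, an autophagy gene, which fell by 1.59. Tecpr2 stood at 125, 89.7 and 89.2 CPM in control and 34.7, 36.7 and 29.4 CPM in stress mice. These values did not overlap, but Tecpr2 lost its call in 9 of 14 alternative fits and mt-Atp8 in 6. With the block, mt-Nd2, mt-Nd3, mt-Nd4l and mt-Nd5, subunits of respiratory complex I, rose too, by 1.16, 1.20, 1.32 and 0.91. Mitochondrial genes took 2.16%, 2.41% and 1.96% of the UMIs of the cluster in control and 2.63%, 3.40% and 2.37% in stress mice, which overlapped, and 2.28% to 2.63% against 3.0% to 3.44% in cluster 11, which did not. In cluster 12 the shares were 2.66%, 2.38% and 2.15% in control and 2.53%, 3.29% and 2.42% in stress mice, which overlapped. The part of this share, of the T and NK sum and of the Kupffer sum in the differences with stress was not tested. The next smallest p belonged to Grik3, a glutamate receptor subunit, at -1.73 ± 0.26 (edgeR adjusted p = 0.0565).

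Arg1 did not pass the test, with a log2 fold change of 0.04 ± 0.33 (edgeR adjusted p = 0.983) and -0.03 ± 0.18 with the block. Spp1 had -0.42 ± 0.49 (edgeR adjusted p = 0.863). The interaction test gave Arg1 a difference of 0.36 ± 0.22 from cluster 11 and -0.99 ± 0.68 from cluster 12, neither past the threshold.

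Most inflammatory cytokine genes had positive fold changes. Of 17, 1, Il1b, passed with the block and not in the main edgeR fit, beside 0.94% of all genes that rose with the block. Il1b (GRCm38 chr2:129364570-129371139, minus strand), the precursor of interleukin-1 beta, stood at 1638, 3284 and 2534 CPM in control and 4884, 5805 and 7991 CPM in stress mice. The lowest stress mouse was higher than the highest control mouse. Its fold change was 1.36 ± 0.35 (edgeR adjusted p = 0.274) and 1.37 ± 0.18 with the block (edgeR adjusted p = 0.0133). Ptgs2 stood at 473, 1318 and 788 CPM in control and 2818, 1864 and 3834 CPM in stress mice, also without overlap, with 1.82 ± 0.37 under the block (edgeR adjusted p = 0.0561). Il1b and Ptgs2 were each called in at least 1 alternative fit that had no block. Over the 17 inflammatory cytokine genes the median was 0.75, with 13 positive, against 0.00404 over all genes tested.

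Cluster 13 was not alone in this. Il1b had a log2 fold change of 1.31 ± 0.44 in cluster 11 and 0.98 ± 0.21 in cluster 12, and the interaction gave -0.10 ± 0.30 and 0.41 ± 0.24, both unchanged in call by the block. These comparisons use the same mice.

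Of 13 heat shock and immediate early genes 0 passed in the main edgeR fit and 3 fell with the block, beside 0.634% of all genes. Fos, a subunit of the factor AP-1, stood at 1643, 1182 and 1542 CPM in control and 483, 628 and 417 CPM in stress mice, with -1.51 ± 0.19 under the block (edgeR adjusted p = 0.0101, and 0.0741 without it). Egr1, an early growth response factor, stood at 1461, 1399 and 1128 CPM in control and 635, 363 and 349 CPM in stress mice, with -1.60 ± 0.18 (edgeR adjusted p = 0.00706, and 0.128 without the block). The groups did not overlap for either gene, and both genes were also called in at least 1 alternative fit without the block. Ier2 fell by 0.96. The median of the list was -0.01, and 0.03 with the block, so that it differed in sign. The summed list ran from 9954 to 12289 CPM in control and from 8419 to 9764 CPM in stress mice. In cluster 12 it stood at 11075, 8687 and 9340 CPM in control and 5988, 4387 and 5486 CPM in stress mice, also without overlap. In cluster 11 the groups overlapped, at 8385 to 9277 CPM in control and 6186 to 9423 CPM in stress mice.

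Among 12 glucocorticoid and adrenergic genes 0 passed in the main edgeR fit, and 2 fell with the block, beside the same 0.634% of all genes. Dusp1, a phosphatase that switches off MAP kinases, stood at 2321, 2862 and 2991 CPM in control and 1417, 1498 and 1588 CPM in stress mice, with -0.84 ± 0.12 (edgeR adjusted p = 0.0191). Every stress mouse lay below every control mouse. Tsc22d3 (GILZ), a target of glucocorticoid signalling, fell by 1.12. The median of the list was -0.41, with 10 of 12 negative. Fkbp5, another such target, had -0.50 ± 0.40 and the receptor Nr3c1 -0.14 ± 0.21. The summed list ran from 4092 to 4946 CPM in control and from 2742 to 3127 CPM in stress mice. In cluster 12 it stood at 4855, 2768 and 3722 CPM in control and 2122, 1435 and 1611 CPM in stress mice, also without overlap. In cluster 11 the groups overlapped, at 2902 to 3787 CPM in control and 1908 to 2954 CPM in stress mice.

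Other list members passed with the block and not in the main edgeR fit. Some of them, among them Mmp19, were also called in at least 1 alternative fit without the block. Mmp19, a matrix metalloproteinase, stood at 25.8, 60.8 and 48.5 CPM in control and 111, 272 and 222 CPM in stress mice, with 2.17 ± 0.15 (edgeR adjusted p = 0.000478). Its groups did not overlap. Cxcl9 rose by 2.37, Odc1, the first enzyme of polyamine synthesis, by 0.94, Txnrd1 by 1.06 and Nfe2l2, the oxidative stress factor NRF2, by 0.77. Mmp8, a collagenase, fell by 1.77 and Ankrd37 by 1.21. S100a8, of the neutrophil marker list, fell by 0.87, at 139, 32.6 and 209 CPM in control and 73.2, 15.2 and 121 CPM in stress mice, which overlapped.

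For glycolysis (0 of 17), hypoxia response (0 of 20), lipid-associated (0 of 20), C1q and MHC-II (0 of 11), interferon-stimulated (0 of 14), chemokine (0 of 17), matrix (0 of 16) and inflammatory cytokine genes (0 of 17), no member passed the main edgeR fit, beside 9 calls over all genes. Some members of these lists were called in alternative fits. Glycolysis genes had a median of -0.34, with 13 of 17 negative, and the C1q and MHC-II genes one of 0.92, with 10 of 11 positive. Members of the latter moved with single mice, and the summed list stood at 884, 5053 and 740 CPM in control and 1511, 7046 and 3440 CPM in stress mice. Without control mouse 2 the log2 fold change of H2-Aa was 4.61, and without stress mouse 2 it was 0.35, where that of H2-Eb1 was -0.21. Some genes that fell with the block were named as copies of other genes, among them Gapdhrt, Rps27rt and Ftl1-ps1, which fell by 1.75, 1.14 and 1.34. Copies were not counted over all genes tested or among the rises, so no excess of them can be read from this. Copies share sequence with their parents, so that their counts are uncertain.

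**Figure D5:**
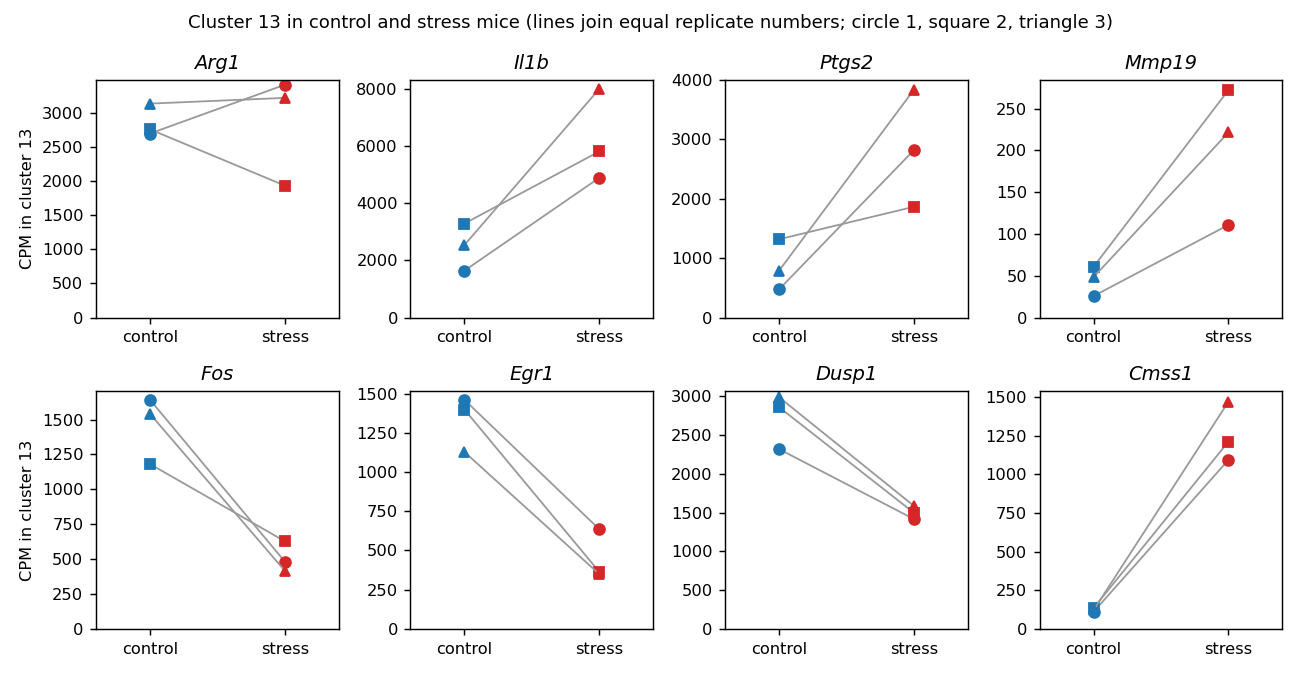
Level in CPM of 8 genes in cluster 13 of control (blue) and stress (red) mice, with lines that join equal replicate numbers. Il1b, Ptgs2, Mmp19 and Cmss1 are higher and Fos, Egr1 and Dusp1 lower in every stress than in every control mouse, and Arg1 overlaps.

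Whether the difference with stress was particular to cluster 13 was asked by an interaction of cluster and stress within mice. edgeR called 0 of 10183 genes (0.0%) against cluster 11, with 462 at an unadjusted p under 0.05, where DESeq2 called 2. Against cluster 12 it called 0 of 9871 genes (0.0%), with 653 at an unadjusted p under 0.05, where DESeq2 called 10. Blocking on replicate number, 11 (0.108%) and 44 (0.446%) were called.

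Among the 5 smallest p against cluster 12 were the cytokine Il6, the chemokine Ccl4, Hes1, a target of Notch, and Ninj1, a membrane protein of cell rupture. Il6 stood at 217, 363 and 307 CPM in control and 655, 377 and 818 CPM in stress mice of cluster 13, which did not overlap. Its log2 fold change was 1.12 ± 0.34 in cluster 13 and -0.30 ± 0.30 in cluster 12, a difference of 1.39 ± 0.24 (edgeR adjusted p = 0.113, and 0.00752 with the block). Ccl4 had 0.95 ± 0.38 and -0.26 ± 0.33, Hes1 1.30 ± 0.26 and -0.45 ± 0.28 and Ninj1 a difference of -1.20 ± 0.20, each called with the block and not in the main edgeR fit. The fifth gene was Gm15987.

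Against cluster 11 the 5 smallest p were those of Fnip2, Serpinb2, Sdc1, Exoc3l2 and Alox15. Serpinb2 differed by 3.29 ± 0.56 (edgeR adjusted p = 0.307, and 0.000102 with the block), with 0.99 in cluster 13 and -2.58 in cluster 11, where it averaged only 13.6 ± 20.5 CPM. Fnip2, a partner of folliculin, differed by -1.55 ± 0.24 (edgeR adjusted p = 0.251, and 0.00717 with the block).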

How the data were processed

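The deposited files held raw UMI counts per gene and cell for each of 6 libraries, made by the authors with Cell Ranger (per the file headers 9.0.0 for control and 7.1.0 for stress mice) and mm10 as the submitters' processing notes name it, and a table of cells with Seurat clusters and the authors' manual cell types. Cells in that table were used as deposited, with at least 209 genes and at most 20.0% mitochondrial UMIs. The table's UMI total equalled that of the matrix in 68.3% to 76.7% of a library's cells and differed by at most 87 UMIs elsewhere. Each library is 1 mouse, so p-values of the main fit of stress and of the permutation test measure the spread between mice. With the replicate number as a block they measure the spread of differences between same-numbered mice. In the interactions they measure the spread of differences between clusters within mice.

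Counts of the cluster 13 cells of each mouse were added up and compared between groups by edgeR 4.0.16 (filterByExpr, TMM scaling, quasi-likelihood fit) in R 4.3.3. The comparison with clusters 11 and 12 used log2 ratios of CPM + 1 within a mouse, for genes with at least 10 CPM, as a description. Interactions of cluster and stress kept the mouse as a block. DESeq2 1.42.0 was an alternative. An adjusted p that it gave as missing stayed missing, for 9377 genes of the interaction with cluster 12. Shares were tested by exact permutation (scipy 1.17.1). Doublets were called with Scrublet in scanpy 1.11.5 and kept in the main fits. Detection was read after thinning each cell to 1000 UMIs, which left out shallower cells. The fits of stress and of the interactions, with edgeR, with the block and with DESeq2 where quoted, were tested on simulated data. The main fit in cluster 13 recovered 14.9% of genes with a true log2 fold change of 1 and 92.6% of those with 2. Of its 110 calls 9 were false, and of the 128 calls with DESeq2 10 were. The interactions with clusters 11 and 12 recovered 19.6% and 20.4% at 1, and 75.5% and 77.6% at 2, with 9 and 7 false among 102 calls each. The simulated counts held no effect of the replicate number, so they do not check what the block adds. The other alternatives were not simulated separately.

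Deviations from the group means correlated between same-numbered control and stress mice (r = 0.404, 0.421 and 0.297, across genes, and at most 0.0166 between other numbers), so the replicate numbers were taken to pair the mice. Within each group the deviations cancel out over its mice, so positive correlations for equal numbers tend to make those between other numbers negative. The contrast with other numbers is therefore no separate support for the pairing. The labels give the numbers and no reason for a pairing. The fit over mice without the block was therefore kept as the main one, with the block as an alternative. The study's methods compared cells, which were not used as replicates here.

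The text names members of gene lists (the most abundant of each and any past the threshold), genes called with stress, the 20 highest and 10 lowest genes of the cluster with at least 100 CPM, the 5 smallest interaction p-values and the study's macrophage genes. A few of these genes are not reported here. Members, lists and tests were chosen with earlier results of these data known. Gene positions are from GENCODE M21, which matched 32061 of 34099 gene IDs.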

Additional observations from a re-analysis of the deposited data

How the results depend on the processing

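The count of genes that differed with stress in cluster 13 (9, of which 8 rose) was 82 (53 rose, 29 fell) with DESeq2, 16 (11 and 5) with cells thinned to 1000 UMIs, 355 (254 and 101) without a filter on low counts, 16 (11 and 5) without called doublets and 18 (13 and 5) without cells that held tumor markers. It was 9 with RLE size factors and 6 with equal cells per mouse. Leaving out 1 mouse at a time it ran from 5, without control replicate 1, to 18, without control replicate 2. Cmss1, Cdk8, Lars2 and Gphn kept their call in all 14 alternatives, Camk1d lost it in 1, Gm15726 and Gm19951 in 3 each, mt-Atp8 in 6 and Tecpr2 in 9. With the replicate numbers as a block, taken from these same counts to pair the mice, the count was 144. With that block 11 and 44 genes differed from clusters 11 and 12.

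The count of genes whose difference was unlike that of cluster 11 (0) was 2 with DESeq2 and 70 without a filter, and 0 to 3 with 1 mouse left out (3 without control replicate 2). Unlike cluster 12 (0) it was 10 with DESeq2 and 62 without a filter, and 0 to 3 with 1 mouse left out (3 without control replicate 2 and 1 without stress replicate 1). The causes were not tested. Without a filter, genes of few counts enter the fit. The difference in the share of monocytes in cluster 13 (-17.0 points) reversed to 0.429 as a share of all cells. It was -1.02 among cells other than tumor cells, -17.1 without called doublets, and ran from -27.5 to -9.50 with 1 mouse left out. Of 424 named genes tested, 123 changed sign in at least 1 alternative, and 0 of these changes were in called genes or in genes called under that alternative. Depth limits genes near a few CPM, since 1 mouse's sum holds 1252598 UMIs at the lowest.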
